A study of Mus musculus with 18 samples.

Results

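The genes described here are 8 enzymes of cholesterol synthesis, Hmgcs1, Mvd, Idi1, Fdps, Sqle, Msmo1, Sc5d and Dhcr7, listed by name. Every probe annotated to them by RefSeq accession was taken, which gave 11 probes for 8 of the 22672 genes tested. RNA came from brains of male 129SV mice kept without an applied stress, either lacking the transcription factor Nrf2 (gene symbol Nfe2l2) or wild type at that gene. Cerebral cortex, hippocampus and brainstem were each measured in Nrf2 knockout and in wild-type mice, which gave 6 groups of 3 arrays (18 arrays in all). All groups shared the strain, the sex and the absence of any treatment. Age, the part of Nfe2l2 that was removed and whether it was removed in every cell are not given in the sources used here. Each array was a 1-colour Agilent mouse array hybridised with amplified, Cy3-labelled RNA. A level in this text is the log2 processed intensity of a probe minus the 75th percentile of its array, so a difference of 1 is a doubling and levels of different probes cannot be set against each other.

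Cholesterol is made from acetyl-CoA through mevalonate, activated isoprene units, farnesyl diphosphate, squalene and a series of sterol intermediates. The genes of the pathway are switched on together by SREBP-2, a membrane-bound transcription factor that is released for cleavage when sterols in the endoplasmic reticulum run low and is held back there by Insig proteins when sterols are plentiful. The brain makes nearly all of its own cholesterol, because lipoproteins of the blood do not cross the blood-brain barrier, and most of it ends up in myelin, which oligodendrocytes wrap around axons. Nrf2 is known for activating antioxidant and detoxifying genes, and cholesterol synthesis uses NADPH, which several Nrf2 target enzymes produce.

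The labels were checked first. The level of Nfe2l2 lay between -8.39 and -7.36 in knockout cortex, against 0.79 to 1.03 in wild-type cortex. It lay between -5.84 and -3.62 in knockout hippocampus, against 0.85 to 1.09 in wild-type hippocampus, and between -7.33 and -4.92 in knockout brainstem, against 1.10 to 1.39 in wild-type brainstem. The probe was well above background on 0, 3 and 1 of the 3 knockout arrays of cortex, hippocampus and brainstem. Brainstem markers followed the labels: the mean level of 8 of them, Hox genes among them, lay between -2.13 and -1.82 on the brainstem arrays and between -7.71 and -5.15 on the others. Most cortex and hippocampus markers did too. Of 8 cortex markers, 6 were called lower in hippocampus than in cortex and 1 higher in both genotypes, by the test given below. Of 8 hippocampus markers, 5 were called higher in hippocampus than in cortex in knockout mice and 6 in wild-type mice, and 0 lower. Per array, 65.3% to 75.1% of spots passed the scanner software's test against background, none (0) was saturated, and the 11 probes described here passed it on every array of every group. The arrays lay on 5 slides, and a slide is called a batch here only in that sense. The precision was limited by the 3 arrays that each group had. The labels number the mice but do not say whether 1 animal gave all its regions, and p-values here measure the spread between these arrays only.

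To ask whether cholesterol synthesis depends on Nrf2 in the unstressed brain, knockout and wild-type arrays were compared in each region. None of the 8 genes passed the test in any region. Their differences ranged from -0.13 to 0.30 in cortex, from -0.18 to 0.23 in hippocampus and from -0.30 to 0.14 in brainstem, and the standard errors were between 0.11 and 0.21. Limma called 0 of the 8 genes in cortex, where it called 0.0309% of all genes, 0 of 8 in hippocampus (0.0176% of all genes, 4 genes, or 2 with the pairing by replicate number as a block), 0 of 8 in brainstem (0.0309%) and 0 of 8 in the average over the 3 regions (0.0529%). A gene was called at a Benjamini-Hochberg adjusted p under 0.05 over all 22672 genes. At an unadjusted p under 0.05, Mvd in brainstem and Msmo1 and Sc5d in the average were past the threshold, as were 2.96% and 6.95% of all genes in those comparisons. In bulk tissue, fewer cells of a type and less RNA per cell cannot be told apart.

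**Figure D1:**
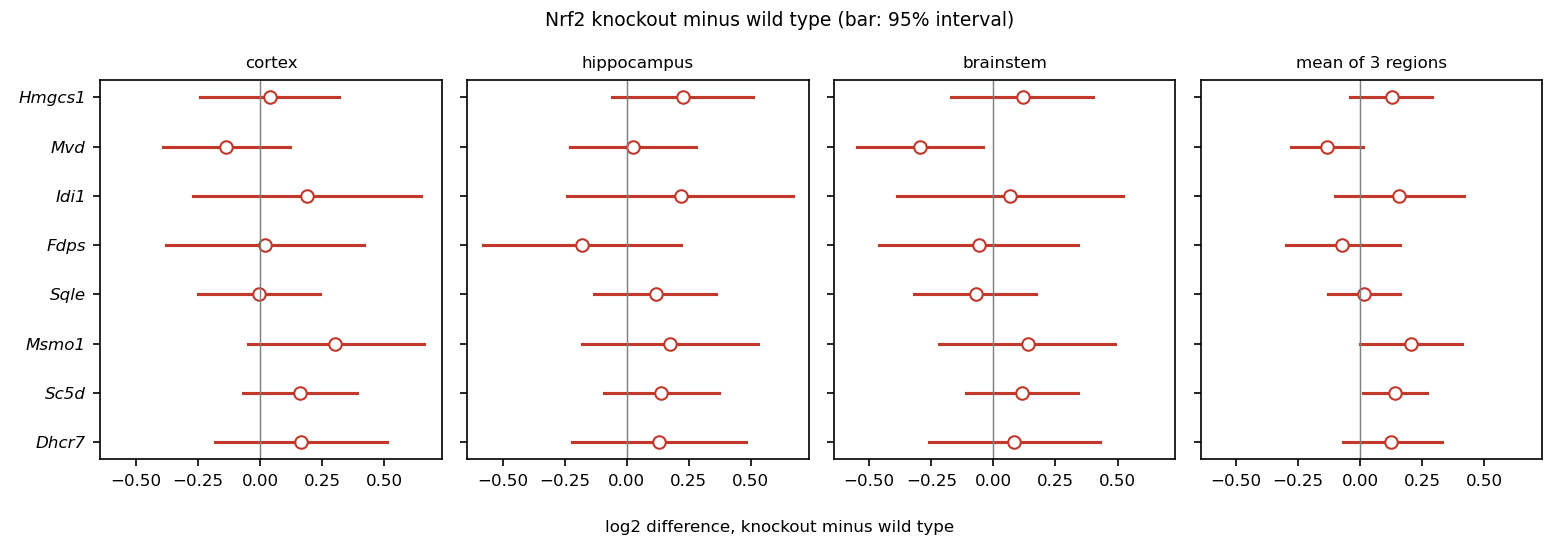
Log2 difference of each gene between Nrf2 knockout and wild-type mice (x axis) in cortex, hippocampus, brainstem and the mean of the 3 regions, with 3 arrays per group; points are estimates, bars 95% intervals, and an open point was not called. All points are open, and the estimates lie between -0.30 and 0.30.

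With the brightest probe of each gene, the sign of the difference was positive for most of the genes. It was positive for 6 of 8 in cortex with a median of 0.101, for 7 of 8 in hippocampus with a median of 0.135, for 5 of 8 in brainstem with a median of 0.0742, and for 6 of 8 in the average with a median of 0.128. The medians of all genes in these comparisons were 0.00135, 0.022, 0.00234 and 0.00485. The signs of genes measured on the same arrays are not independent of each other, so the counts are given as a description. Hmgcs1, Idi1 and Dhcr7 had a second, dimmer probe, and some signs depended on the probe. The second probe of Dhcr7 was negative in cortex (-0.15 ± 0.13), brainstem (-0.13 ± 0.13) and the average (-0.08 ± 0.073). That of Idi1 was negative in hippocampus (-0.11 ± 0.23). The other second-probe differences were positive. Within slides, the median difference of the 8 genes was 0.06 and 0.19 on the cortex slides, 0.17 and 0.11 on the hippocampus slides, and -0.07 and 0.31 on the brainstem slides (slides 1 and 2). On brainstem slide 1, with 2 arrays per genotype, 7 of the 8 differences were negative. On slide 2, with 1 array per genotype, 6 of 8 were positive.

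Msmo1, the sterol C4-methyl oxidase that begins removal of the methyl groups at carbon 4, and Sc5d, the desaturase that introduces the double bond at carbon 5, had the smallest p-values in the average. Msmo1 had levels of 5.12, 4.69 and 4.95 in knockout cortex, against 4.45, 4.77 and 4.64 in wild-type cortex. In hippocampus its levels were 4.63, 4.45 and 4.98 in knockout mice, against 4.31, 4.64 and 4.58 in wild-type mice, and in brainstem 4.93, 4.93 and 5.39 in knockout mice, against 4.87, 5.06 and 4.89 in wild-type mice. The genotypes overlapped in all 3 regions. The averaged difference of Msmo1 was 0.21 ± 0.096 (SE, 95% interval 0.00 to 0.41, limma unadjusted p = 0.0487, adjusted p = 0.719).

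Sc5d had levels of 2.26, 2.07 and 2.16 in knockout cortex, against 1.95, 2.07 and 1.98 in wild-type cortex. Both groups had an array at 2.07 after rounding but did not overlap, with knockout above wild type, as was the case for 2.98% of all genes in cortex. In hippocampus and brainstem its genotypes overlapped, with 2.04, 1.83 and 2.27 in knockout hippocampus, against 1.85, 1.92 and 1.95 in wild-type hippocampus, and 2.58, 2.57 and 2.68 in knockout brainstem, against 2.41, 2.62 and 2.45 in wild-type brainstem. The averaged difference was 0.14 ± 0.061 (95% interval 0.01 to 0.27, limma adjusted p = 0.718).

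Mvd, the decarboxylase that turns mevalonate diphosphate into isopentenyl diphosphate, had the lowest difference. Its brainstem levels were 1.33, 1.25 and 1.10 in knockout mice, against 1.58, 1.74 and 1.24 in wild-type mice, and the lowest wild-type array lay inside the knockout range. The difference was -0.30 ± 0.12 (95% interval -0.55 to -0.04, limma unadjusted p = 0.0275, adjusted p = 1), and arrays with the same number differed by -0.25, -0.49 and -0.14. Hmgcs1, the synthase that makes HMG-CoA, was the other gene whose genotypes did not overlap, in hippocampus, where 5.05% of all genes lay higher in knockout mice without overlap. In brainstem the genotypes of 6.60% of all genes did not overlap, and those of 0 of the 8 genes. Hmgcs1 had 5.13, 5.20 and 5.32 in knockout hippocampus, against 4.81, 5.09 and 5.08 in wild-type hippocampus, a difference of 0.23 ± 0.13 (95% interval -0.06 to 0.51, limma adjusted p = 1).

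For the remaining genes the averaged difference was 0.16 for Idi1 (95% interval -0.10 to 0.42), -0.07 for Fdps (-0.30 to 0.16), 0.01 for Sqle (-0.13 to 0.16) and 0.13 for Dhcr7 (-0.07 to 0.33). Fdps, which joins isoprene units to farnesyl diphosphate, stood out by its spread in knockout cortex, with 0.53, 1.12 and 1.52, against 0.96, 1.14 and 1.01 in wild-type cortex. Its averaged interval, like those of the other 7 genes, ended at or below 0.42, which is a 1.34-fold difference.

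The rest of the pathway gave a count of 0 as well. Of 13 further synthesis enzymes, 7 SREBP regulators, 7 sterol uptake genes, 11 efflux, storage and LXR genes, 9 fatty acid synthesis genes under SREBP-1 and 6 isoprenoid branch genes, 0 were called in any of the 4 comparisons of knockout with wild type. The averaged difference of the 13 further enzymes had a median of -0.0136 and ranged from -0.23 to 0.12. Of 16 oligodendrocyte and myelin markers and of the astrocyte, neuron, microglia and endothelial lists 0 were called too. Choroid plexus markers, of which 9 were tested and 0 called, varied most between arrays. Their mean level ran from -3.46 to -0.27 in knockout cortex, against -1.49 to -0.52 in wild-type cortex. It ran from -2.46 to 0.89 in knockout hippocampus, against -2.41 to 1.41 in wild-type hippocampus, and from -2.23 to 0.09 in knockout brainstem, against -2.21 to -0.92 in wild-type brainstem. The part of choroid plexus tissue in the values of the 8 genes was not tested.

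Whether the genotype difference itself varied between regions was tested with the interaction terms of the model. Of the 8 genes 0 were called, and limma called 0% of all genes, in each of the 3 pairs of regions. By unadjusted p, 189 genes were under 0.05 for hippocampus against cortex, 200 for brainstem against cortex and 222 for brainstem against hippocampus. The interaction estimates of the 8 genes lay between -0.32 and 0.19, with the value farthest from 0 for Mvd in brainstem against hippocampus (-0.32 ± 0.17, 95% interval -0.69 to 0.04).

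The regions were then compared within each genotype. In knockout mice Mvd, Fdps, Sqle, Sc5d and Dhcr7 were higher in brainstem than in hippocampus, 5 of 8, with a median difference of 0.468 over the 8 genes, and 21.7% of all genes were called higher. With mouse number as a block, all 8 were called there (24.2% of all genes), although the labels do not say that a number marks 1 animal. In wild-type mice all 8 genes were higher in brainstem than in hippocampus, by 0.41 to 0.80 (1.33-fold to 1.74-fold) with a median of 0.582, and 23.0% of all genes were called higher there. Against cortex, Fdps, Sqle and Sc5d were higher in brainstem in both genotypes, 3 of 8 each time, where 18.9% of all genes were called higher in knockout mice and 19.1% in wild-type mice. The knockout calls of all 3 were lost when only the arrays of the groups compared were fitted, and in wild-type mice Idi1 and Msmo1 were called too with mouse number as a block, 5 of 8 in all (22.7% of all genes). Between hippocampus and cortex 1 gene was called, Mvd, which was lower in hippocampus in both genotypes, where 9.44% of all genes were called lower in knockout mice and 10.4% in wild-type mice. The medians of all genes in these comparisons lay between -0.00392 and 0.0295.

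**Figure D2:**
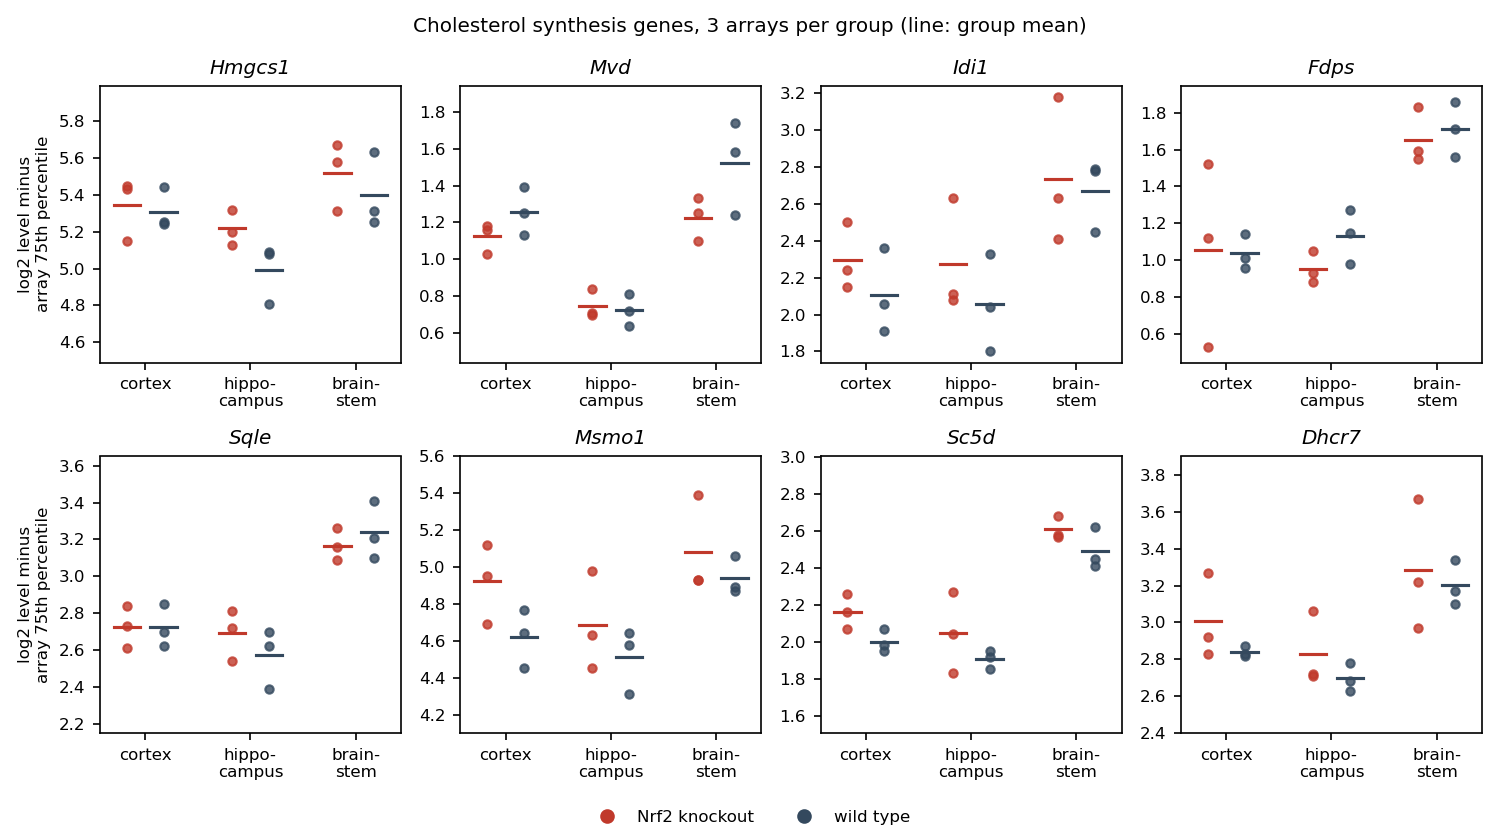
Level of each gene (y axis, log2 processed intensity minus the 75th percentile of the array) in cortex, hippocampus and brainstem, with knockout arrays in red on the left and wild-type arrays in dark blue on the right of each region; points are the 3 arrays of a group and lines the group mean. The brainstem means are the highest of the 3 regions for each of the 8 genes in both genotypes, and every panel spans the same range of levels.

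The mean level was highest in brainstem for 8 of 8 genes in both genotypes. With the brightest probe of each gene, it was lowest in hippocampus for 8 of 8 genes in knockout mice and for 7 of 8 in wild-type mice, with Fdps the exception. The second probes of Hmgcs1, Idi1 and Dhcr7, given below, did not all show this. Hippocampus and cortex, the neighbours at the low end of this order, differed past the threshold for Mvd, and the order of those 2 regions was not resolved for the other 7 genes. Brainstem arrays lay above all hippocampus arrays for 4 of 8 genes in knockout mice (25.5% of all genes) and for 8 of 8 in wild-type mice (30.6%), and above all cortex arrays for 3 of 8 in knockout mice (21.1%) and 6 of 8 in wild-type mice (28.4%). Hippocampus arrays lay below all cortex arrays for 1 of 8 genes in knockout mice (16.4%) and 4 of 8 in wild-type mice (22.6%).

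The first steps, from HMG-CoA to the C5 isoprene units, are represented by Hmgcs1, Mvd and Idi1. Hmgcs1 is on chromosome 13 (GRCm38.p6, gene span chr13:119690351-119708260). Its brainstem levels were 5.31, 5.58 and 5.67 in knockout mice and 5.31, 5.63 and 5.25 in wild-type mice. In knockout mice 1 brainstem array fell within the hippocampus range (5.13, 5.20 and 5.32), and the difference was 0.30 ± 0.13 (limma adjusted p = 0.0868, or 0.0183 with mouse number as a block). The wild-type brainstem arrays all lay above the wild-type hippocampus arrays (4.81, 5.09 and 5.08), and the difference was 0.41 ± 0.13 (adjusted p = 0.0229). This call was lost without hippocampus wild-type array 1 (limma adjusted p = 0.105) or brainstem wild-type array 2 (adjusted p = 0.116). Against cortex Hmgcs1 differed by 0.17 ± 0.13 in knockout mice (adjusted p = 0.35) and by 0.09 ± 0.13 in wild-type mice (adjusted p = 0.628), with overlapping arrays.

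Mvd (chr8:122433596-122443422) had the largest of the 8 wild-type differences. Knockout brainstem had 1.33, 1.25 and 1.10, knockout hippocampus 0.70, 0.71 and 0.84 and knockout cortex 1.03, 1.18 and 1.16. Wild-type brainstem had 1.58, 1.74 and 1.24, wild-type hippocampus 0.64, 0.81 and 0.72 and wild-type cortex 1.25, 1.39 and 1.13. Hippocampus was thus the low region in both genotypes, clear of every array of the other regions. Brainstem exceeded hippocampus by 0.47 ± 0.12 in knockout mice (limma adjusted p = 0.00562) and by 0.80 ± 0.12 in wild-type mice (adjusted p = 9.02e-05). Hippocampus minus cortex was -0.38 ± 0.12 in knockout mice (adjusted p = 0.0465) and -0.53 ± 0.12 in wild-type mice (adjusted p = 0.00668), and the knockout value was not called when any of its 6 arrays was left out (adjusted p 0.0528 to 0.141).

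Idi1, the isomerase that converts isopentenyl diphosphate into the reactive dimethylallyl diphosphate (chr13:8885606-8892396), had the largest standard error of the 8 genes. Its brainstem levels were 2.41, 2.63 and 3.18 in knockout mice and 2.45, 2.78 and 2.79 in wild-type mice. Hippocampus had 2.11, 2.08 and 2.63 in knockout mice and 1.80, 2.33 and 2.04 in wild-type mice. The regions overlapped in knockout mice and did not in wild-type mice. Brainstem minus hippocampus was 0.46 ± 0.21 in knockout mice (limma adjusted p = 0.099, or 0.00911 with mouse number as a block) and 0.61 ± 0.21 in wild-type mice (adjusted p = 0.0312). The test of the difference between these values gave -0.15 ± 0.30 (interaction, adjusted p = 1). The wild-type call of Idi1 was lost without hippocampus wild-type array 1 or 3 or brainstem wild-type array 2 or 3 (limma adjusted p 0.0712 to 0.126).

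Fdps makes farnesyl diphosphate, the branch point from which sterols, dolichol, ubiquinone and protein prenyl groups are drawn (chr3:89093588-89101967). In brainstem it had 1.55, 1.83 and 1.59 in knockout mice and 1.56, 1.86 and 1.71 in wild-type mice, and each of these 6 values was above every hippocampus and cortex array of either genotype. The highest of those was 1.52, in knockout cortex. Brainstem exceeded cortex by 0.60 ± 0.19 in knockout mice (limma adjusted p = 0.021, or 0.17 with only the groups compared) and by 0.67 ± 0.19 in wild-type mice (adjusted p = 0.0107). Without cortex knockout array 1, at 0.53, the knockout difference was 0.33 (adjusted p = 0.0864), and without brainstem knockout array 2 it was 0.51 (adjusted p = 0.0823). Brainstem exceeded hippocampus by 0.70 ± 0.19 in knockout mice (limma adjusted p = 0.0075) and by 0.58 ± 0.19 in wild-type mice (adjusted p = 0.0217). That wild-type call was lost without hippocampus wild-type array 3 (adjusted p = 0.0796) or brainstem wild-type array 2 (adjusted p = 0.0806).

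Sqle, squalene epoxidase, carries out the first oxygen-dependent step and is a control point of the pathway (chr15:59315092-59331193). Its levels were 3.09, 3.16 and 3.26 in knockout brainstem, against 2.54, 2.72 and 2.81 in knockout hippocampus and 2.73, 2.61 and 2.84 in knockout cortex. They were 3.1, 3.41 and 3.21 in wild-type brainstem, against 2.39, 2.70 and 2.62 in wild-type hippocampus and 2.70, 2.85 and 2.62 in wild-type cortex. The brainstem arrays stood clear of all others. Brainstem minus hippocampus was 0.48 ± 0.11 in knockout mice (limma adjusted p = 0.00399) and 0.67 ± 0.11 in wild-type mice (adjusted p = 0.000282), and brainstem minus cortex was 0.44 ± 0.11 in knockout mice (adjusted p = 0.00714, or 0.0652 with only the groups compared) and 0.51 ± 0.11 in wild-type mice (adjusted p = 0.00267).

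The last 3 genes act on the sterol ring. Msmo1 (chr8:64718123-64733578) had a brainstem minus hippocampus difference of 0.39 ± 0.17 in knockout mice (limma adjusted p = 0.0717, or 0.0146 with mouse number as a block) and of 0.43 ± 0.17 in wild-type mice, close to the threshold (adjusted p = 0.0498). The wild-type call was lost when any of its 6 arrays was left out (adjusted p 0.0571 to 0.178). Sc5d (chr9:42251592-42264300) gave the same picture in both genotypes: its 6 brainstem levels, 2.41 to 2.68, lay above its 12 hippocampus and cortex levels, 1.83 to 2.27. Brainstem minus hippocampus was 0.57 ± 0.11 in knockout mice (adjusted p = 0.000611) and 0.59 ± 0.11 in wild-type mice (adjusted p = 0.000425). Brainstem minus cortex was 0.45 ± 0.11 in knockout mice (adjusted p = 0.00408, or 0.0553 with only the groups compared) and 0.49 ± 0.11 in wild-type mice (adjusted p = 0.00201).

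Dhcr7 reduces 7-dehydrocholesterol to cholesterol, the final step of one arm of the pathway, and its loss in humans causes Smith-Lemli-Opitz syndrome (chr7:143823167-143848410). Its levels were 2.97, 3.22 and 3.67 in knockout brainstem, against 2.71, 2.72 and 3.06 in knockout hippocampus. They were 3.1, 3.34 and 3.17 in wild-type brainstem, against 2.63, 2.78 and 2.68 in wild-type hippocampus. The wild-type arrays did not overlap, whereas the highest knockout hippocampus array exceeded the lowest knockout brainstem array. The differences were 0.46 ± 0.16 in knockout mice (limma adjusted p = 0.035) and 0.51 ± 0.16 in wild-type mice (adjusted p = 0.0207). The knockout call was lost without hippocampus knockout array 1 or 2 or brainstem knockout array 2 or 3 (adjusted p 0.0535 to 0.154). The wild-type call was lost without hippocampus wild-type array 1 or 3 or brainstem wild-type array 2 (limma adjusted p 0.0518 to 0.0801).

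**Figure D3:**
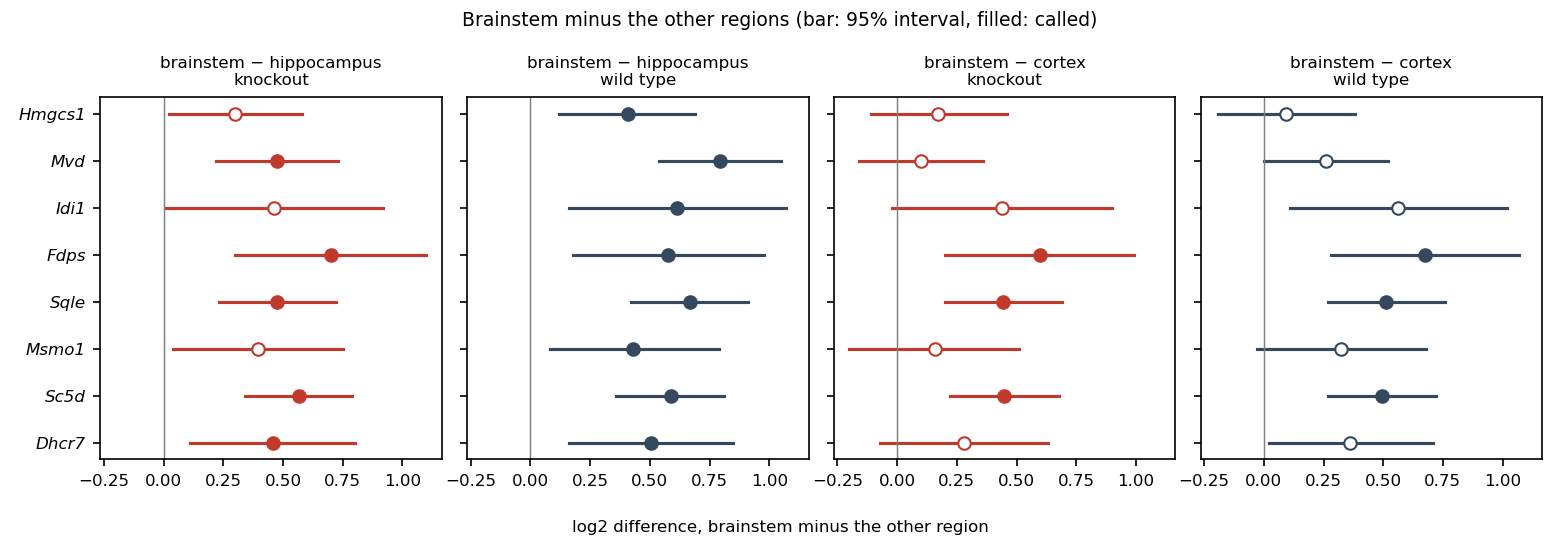
Log2 difference of each gene between brainstem and hippocampus and between brainstem and cortex (x axis), in knockout mice (red) and wild-type mice (dark blue), 3 arrays per group; bars are 95% intervals, filled points were called at an adjusted p under 0.05 and open points were not. All 32 estimates lie to the right of 0, and 19 of them are filled.

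Promoters are shown for Hmgcs1, which holds a match to the sterol regulatory element bound by SREBP, for Mvd, which had the largest wild-type difference between brainstem and hippocampus, and for Sc5d, which was called in all 4 brainstem comparisons. The sequences are from RefSeq (GRCm38.p6) and run 5′ to 3′ on the strand of the gene over the 250 bases before its start. They lie at chr13:119690101-119690350 on the plus strand for Hmgcs1, at chr8:122443423-122443672 on the minus strand for Mvd and at chr9:42264301-42264550 on the minus strand for Sc5d. Capitals mark matches to TCACNCCAC, a relaxed form of the sterol regulatory element, and to CCAAT, bound by the factor NF-Y, which works beside SREBP, on either strand.
Hmgcs1: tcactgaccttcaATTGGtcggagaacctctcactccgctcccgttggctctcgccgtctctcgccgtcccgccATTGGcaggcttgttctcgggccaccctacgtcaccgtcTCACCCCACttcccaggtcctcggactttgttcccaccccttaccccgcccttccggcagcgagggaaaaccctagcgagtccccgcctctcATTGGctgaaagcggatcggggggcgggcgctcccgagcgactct
Mvd: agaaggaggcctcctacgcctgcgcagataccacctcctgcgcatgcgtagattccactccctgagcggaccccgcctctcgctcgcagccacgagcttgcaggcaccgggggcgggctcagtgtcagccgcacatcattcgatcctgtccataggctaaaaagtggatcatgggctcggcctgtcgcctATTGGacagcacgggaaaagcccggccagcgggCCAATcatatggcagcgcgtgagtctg
Sc5d: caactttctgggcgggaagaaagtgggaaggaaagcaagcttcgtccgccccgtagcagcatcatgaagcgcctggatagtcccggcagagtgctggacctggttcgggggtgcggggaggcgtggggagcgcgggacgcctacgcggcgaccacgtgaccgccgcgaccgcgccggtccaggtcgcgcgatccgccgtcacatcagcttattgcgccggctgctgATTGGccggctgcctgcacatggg
The match to TCACNCCAC in Hmgcs1 lies 137 to 129 bases before the start. Windows were found for 6 of the 8 genes, 1 each for Hmgcs1, Mvd, Idi1, Msmo1 and Sc5d and 3 for Dhcr7. Of these 8 windows, 1 held TCACNCCAC, against 1.05% of all 32841 promoter windows of that length, and 0 held the strict form of the element, whose matches all hold TCACNCCAC too (0.0731% of all). CCAAT was found in 6 of 8 windows (33.9% of all), the GC box GGGCGG in 7 of 8 (32.7%) and the E-box CACGTG in 2 of 8, those of Sc5d and the second of Dhcr7 (6.02%). The antioxidant response element core TGACNNNGC, which Nrf2 binds with small Maf proteins, was found in 1 of 8 windows, the third of Dhcr7, 217 to 209 bases before that start (10.2% of all). Both strands were searched for each, and matches to different motifs may overlap. A match describes letters only.

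How far these region differences depended on single arrays and on slides was examined next. The knockout count of 5 for brainstem against hippocampus lay between 4 and 7 when an array was left out. The wild-type count of 8 was 4 without hippocampus wild-type array 1 or without hippocampus wild-type array 3, and 3 without brainstem wild-type array 2, and 7 at most when any array was left out. Mvd, Sqle and Sc5d stayed called in both genotypes each time, and all 8 differences were positive each time. Only slide 2 held both regions, with 1 array per group, and there the 8 differences were all positive, with medians of 0.71 in knockout mice and 0.59 in wild-type mice. With slide as a block, 4 of 8 genes were called in knockout mice and 7 of 8 in wild-type mice, and Fdps was called in neither (adjusted p = 0.0567 in knockout and 0.108 in wild-type mice). Mvd was also not called in knockout mice then (0.34, adjusted p = 0.0671), whereas Idi1 was (0.95, adjusted p = 0.00726). The cortex arrays filled slides of their own, so brainstem against cortex could be adjusted for slide only by a correlation within slides (0.245), which left 2 of 8 genes called in knockout mice and 3 of 8 in wild-type mice.

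Hmgcs1, Idi1 and Dhcr7 each had a second probe. The second probe of Idi1 exceeded hippocampus in brainstem by 0.90 ± 0.23 in knockout mice and by 0.63 ± 0.23 in wild-type mice (limma adjusted p = 0.00618 and 0.0427), and cortex by 1.03 ± 0.23 in knockout mice and 1.25 ± 0.23 in wild-type mice (adjusted p = 0.00286 and 0.000656). The second probe of Dhcr7 was called in the same 4 comparisons, with differences of 0.45 to 0.61. The second probe of Hmgcs1 was called in none of them, with 0.19 and 0.13 against hippocampus and 0.44 and 0.48 against cortex in knockout and wild-type mice. The probes of Hmgcs1 also had opposite signs between hippocampus and cortex in wild-type mice, where the second gave 0.35 ± 0.25 and the first -0.32 ± 0.13 (adjusted p = 0.388 and 0.126). In wild-type mice the second probe of Idi1 was higher in hippocampus too (0.62 ± 0.23, limma adjusted p = 0.0852), and that of Dhcr7 was lower (-0.12 ± 0.13). In knockout mice the second probes of Hmgcs1, Idi1 and Dhcr7 were higher in hippocampus than in cortex (0.25 ± 0.25, 0.13 ± 0.23 and 0.05 ± 0.13, none called), whereas their first probes were lower. With the mean of both probes, the brainstem minus hippocampus difference of Hmgcs1 in wild-type mice was 0.27 (adjusted p = 0.204).

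Myelin markers moved with the same regions. Of 16 tested oligodendrocyte and myelin markers, out of 17 listed, 16 were higher in brainstem than in hippocampus in knockout mice (median 1.32) and 15 in wild-type mice (median 1.14), and 16 were higher in brainstem than in cortex in both genotypes (medians 1.25 and 1.15). Their mean level ran from 3.07 to 3.21 in knockout brainstem and from 3.01 to 3.1 in wild-type brainstem. It ran from 1.32 to 2.13 in knockout hippocampus, from 1.70 to 2.01 in wild-type hippocampus, from 1.74 to 1.86 in knockout cortex and from 1.73 to 1.82 in wild-type cortex. All 16 were above background on every array of every group. Their part in the region differences of the 8 genes was not tested. In wild-type brainstem against hippocampus, 4 of 10 astrocyte markers were higher and 2 lower, 6 of 10 neuron markers were higher and 3 lower, 0 of 8 microglia markers were higher and 5 lower, and 3 of 8 endothelial markers were higher and 0 lower. Of 9 choroid plexus markers 0 were higher and 1 lower, and of 3 erythrocyte markers 2 were higher. In the same comparison 23.0% of all genes were called higher and 18.5% lower.

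**Figure D4:**
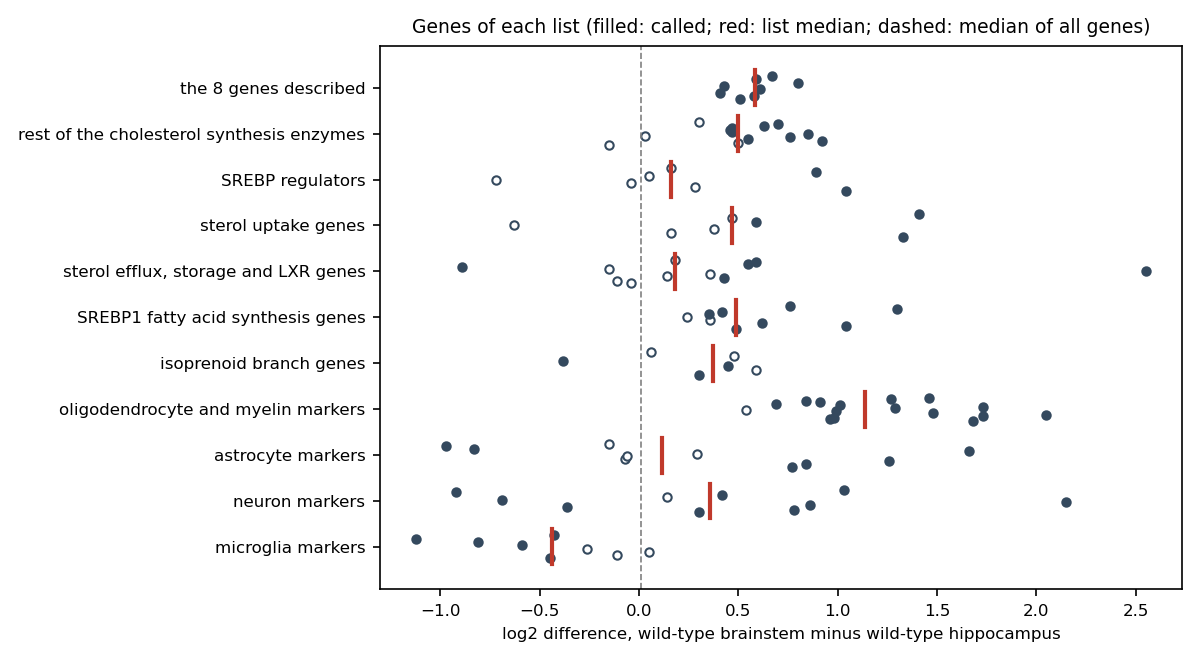
Log2 difference between wild-type brainstem and wild-type hippocampus (x axis) for the genes of each list (rows), 3 arrays per group; filled points were called, open points were not, red ticks are list medians and the dashed line is the median of all genes (0.0115). The 8 genes described here lie between 0.41 and 0.80, all to the right of the dashed line.

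Of the 13 other synthesis enzymes, 7 were higher in brainstem than in hippocampus and 6 higher than in cortex in knockout mice, with 0 lower. The shares of all genes called higher there were 21.7% and 18.9%. In wild-type mice 9 of the 13 were higher and 0 lower in brainstem than in hippocampus (median 0.501), where 23.0% of all genes were called higher. Pmvk, the phosphomevalonate kinase just before Mvd, exceeded hippocampus in brainstem by 0.70 ± 0.11 (limma adjusted p = 0.000133). Against cortex 7 of 13 were higher in wild-type brainstem (19.1% of all genes). The smallest adjusted p-values among them were those of the ketosteroid reductase Hsd17b7 (1.0 ± 0.18, adjusted p = 0.000625) and the sterol reductase Lbr (0.46 ± 0.11, adjusted p = 0.00324). In wild-type mice 1 of 13 was lower in brainstem than in cortex (16.6% of all genes). In wild-type hippocampus 3 of 13 were lower than in cortex (10.4% of all genes). Among these was Pmvk (-0.35 ± 0.11, adjusted p = 0.044), which is named for this after its values were seen.

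Some regulators and uptake genes of the same control circuit were also called between regions. Of all genes, 23.0% were called higher and 18.5% lower in wild-type brainstem than in hippocampus. Against cortex 19.1% were called higher and 16.6% lower. In wild-type mice the 7 regulators had a median difference of 0.156 against hippocampus (-0.72 to 1.04) and 0.0209 against cortex. The medians of the 7 uptake genes were 0.467 and 0.556. Of 7 SREBP regulators, 2 were higher in wild-type brainstem than in hippocampus, namely Insig1, the sterol-sensing retention protein that is itself an SREBP target (1.04 ± 0.19, limma adjusted p = 0.00043), and Srebf1, which encodes SREBP-1 (0.89 ± 0.17, adjusted p = 0.000529). Against cortex 3 of 7 were higher in wild-type brainstem, among them Insig1 (0.86 ± 0.19, adjusted p = 0.00229) and Srebf1 (0.61 ± 0.17, adjusted p = 0.00962). Npc2, which carries cholesterol out of lysosomes, exceeded hippocampus in wild-type brainstem by 0.59 ± 0.11 (adjusted p = 0.000578). In all, 3 of 7 uptake genes were higher in wild-type brainstem than in hippocampus, and 4 were higher and 2 lower than in cortex.

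Npc1l1, a sterol transporter known from the intestine, had its highest wild-type level in cortex. It differed by -1.66 ± 0.26 between wild-type hippocampus and cortex (limma adjusted p = 0.000399) and by -2.29 ± 0.26 between wild-type brainstem and cortex (adjusted p = 6.33e-06). Its probe was above background on all wild-type arrays.

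Among 11 genes of efflux, storage and LXR signalling, 4 were higher and 1 lower in wild-type brainstem than in hippocampus. Of all genes, 23.0% were called higher and 18.5% lower there. Cyp27a1, the sterol 27-hydroxylase, had the highest differences of this list, 2.55 ± 0.24 against hippocampus and 2.22 ± 0.24 against cortex (limma adjusted p = 7.72e-07 and 4.15e-06). Mylip, a ubiquitin ligase induced by LXR, was the lower gene (-0.89 ± 0.11, adjusted p = 9.7e-06), and it was higher in wild-type hippocampus than in cortex (0.58 ± 0.11, adjusted p = 0.00147). Of the LXR genes, Nr1h3 was higher in wild-type brainstem than in cortex (0.63 ± 0.11, adjusted p = 0.000408) and Nr1h2 was lower in wild-type hippocampus than in cortex (-0.48 ± 0.094, adjusted p = 0.00233). Against cortex, 3 of the 11 were higher and 2 lower in wild-type brainstem, where 19.1% of all genes were called higher and 16.6% lower.

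Fatty acid synthesis genes under SREBP-1 were higher in wild-type brainstem than in hippocampus for 7 of 9 and higher than in cortex for 6 of 9, with 0 lower. Of all genes, 23.0% were called higher and 18.5% lower than in hippocampus, and 19.1% higher and 16.6% lower than in cortex. Acly, which supplies acetyl-CoA to both fatty acid and cholesterol synthesis, exceeded hippocampus by 1.04 ± 0.13 and cortex by 0.86 ± 0.13 (limma adjusted p = 1.34e-05 and 9.97e-05). The desaturase Scd2 exceeded hippocampus by 0.76 ± 0.099 (adjusted p = 2.13e-05) and Scd1 exceeded cortex by 1.05 ± 0.17 (adjusted p = 0.000206). Of the 6 genes tested on the isoprenoid branch, which draws on the product of Fdps, 2 were higher and 1 lower in wild-type brainstem than in hippocampus, with Fntb, a farnesyltransferase subunit, at 0.45 ± 0.09 (adjusted p = 0.00102) and Dhdds, which makes dolichol precursors, at 0.30 ± 0.075 (adjusted p = 0.0055). Against cortex, Fnta, the subunit that farnesyltransferase shares with a related prenyl transferase, was higher (0.74 ± 0.24, adjusted p = 0.0239) and Ggps1, which extends farnesyl diphosphate by 1 isoprene unit, lower (-0.53 ± 0.10, adjusted p = 0.00105).

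The 8 genes also varied between arrays of the same group. Over the 18 arrays, the deviations from the group mean of any 2 of the genes had correlations of -0.27 to 0.86, with a median of 0.48, and 23 of the 28 were positive. These arrays share slides and scaling, so the values are a description. Against the mean deviation of the other 7, Sqle had the highest correlation (0.82), followed by Idi1 (0.75), Hmgcs1 (0.74), Msmo1 (0.73), Sc5d (0.67) and Dhcr7 (0.57), whereas Mvd (0.21) and Fdps (0.13) stood apart. The mean deviation of the 8 genes ran from -0.14 in brainstem knockout array 1 to 0.17 in hippocampus knockout array 3. In hippocampus wild-type array 2 and in brainstem wild-type array 2, 8 of 8 genes were above their group mean, and in hippocampus knockout array 1 and cortex wild-type array 1, 0 of 8 were.

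**Figure D5:**
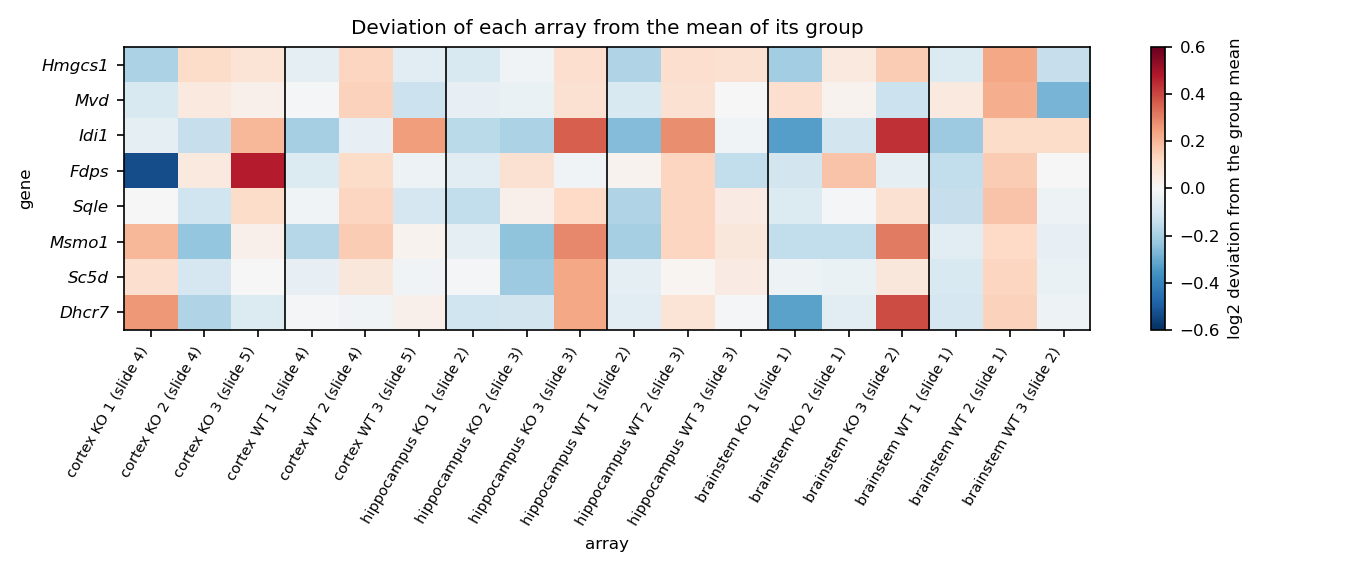
Deviation of each gene (rows) on each array (columns, labelled by group, number and slide) from the mean of its group on the log2 scale, from -0.6 in blue to 0.6 in red. Whole columns take 1 colour on several arrays, such as brainstem wild-type array 2, where 8 of 8 genes are above the group mean. Fdps has the largest deviations on knockout cortex arrays 1 (-0.53) and 3 (0.47).

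Among 14783 genes with a symbol, those whose deviations over the 18 arrays followed the mean of the 8 genes most closely by Pearson correlation were the metallothionein Mt1 (0.908), Mllt11 (0.882), the monocarboxylate transporter Slc16a1 (0.877), Trp53inp1 (0.866) and Pop4, a subunit of ribonuclease P (0.865). By the profile over the 6 group means, Il11, Mfsd2a, Aco1, Proca1 and Fadd were closest, each with a correlation of at least 0.998. These are 6 points that share arrays and scaling, and the values are a description.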

How the data were processed

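Expression was measured on 18 single-colour Agilent arrays. The deposited intensity of each spot is the background-subtracted processed signal of Feature Extraction 10.7.3.1, per the file headers. Control spots and outlier flags were left out, spots of a probe were averaged, log2 was taken and the 75th percentile of the array subtracted. A probe was kept if some group had it well above background on each of its 3 arrays (30066 of 41174). Symbols came from RefSeq accessions (26690 probes with 1 symbol, 0 with several, 14484 with none). Each gene was represented by its brightest kept probe, which gave 22672 genes.

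One model of 6 groups was fitted with limma 3.58.1 in R 4.3.3 (lmFit and eBayes, 12 residual degrees of freedom), two-sided, with Benjamini-Hochberg adjustment over all genes. Calls were made at 0.05. On data simulated for brainstem minus hippocampus in wild type (22616 genes), 68, 66 and 66 genes were changed by 0.3, 0.6 and 1.2 on the log2 scale. Of these 1.47%, 30.3% and 60.6% were called, and 4 of 22416 unchanged genes were. In the real comparison 41.5% of all genes were called, which makes the adjusted threshold less strict. The simulated rates therefore do not give the power of that comparison. Arrays of the same number share a slide between genotypes of a region, and their deviations correlated in 9 of 9 pairs (0.239 to 0.621). Pairing by number and a shared slide cannot be told apart by these values. The main tests of knockout against wild type were unpaired, and the number was used as a block in an alternative fit. Between regions, every pair of the same mouse number correlated over 0.1 for brainstem and hippocampus in knockout mice (0.141 to 0.359) and for brainstem and cortex in wild-type mice (0.381 to 0.711). Results with mouse number as a block are given beside the main ones there. The cutoff of 0.1 was applied to these same data, and arrays of different numbers were not compared. Brainstem and hippocampus in wild-type mice fell just short of it (0.097 to 0.177). The block joined all 3 regions by number, also knockout cortex, where a pair with brainstem was at -0.052 and a pair with hippocampus at 0.081. The block is thus an alternative to the main fit and not an established pairing.

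The members and lists were chosen with earlier results of these data known. All 8 genes are named, and from each pathway list the genes called in a knockout comparison and, per wild-type region comparison, the 2 called genes with the smallest adjusted p. Likeness genes are the 5 with the highest correlation. Alternatives were normexp background correction (offset 50, on median signals, since mean signals are not among the columns), quantile normalization, no filter, the mean of probes, every probe alone, trend and robust moderation, only the groups compared, slide and replicate blocks, the deposited table and leaving out each array. Of the deposited table's 18 columns, 11 matched the array of their own title and 7 matched another array, so the scanner files were used. Some genes that the naming rule picks are not reported here.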

Additional observations from a re-analysis of the deposited data

How the results depend on the processing

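No gene of the 8 that was called as reported changed its sign under any alternative, and 0 of the 8 were called in any comparison of knockout with wild type under any of them. Single calls moved in more settings than the larger moves of the counts listed below. Each comparison had 80 values, 8 genes in 10 settings besides leaving out arrays. Brainstem against hippocampus lost 7 calls and gained 6 in knockout mice, and lost 10 and gained 0 in wild-type mice. Brainstem against cortex lost 4 and gained 4 in knockout mice, and lost 0 and gained 11 in wild-type mice. The wild-type call of Hmgcs1 over hippocampus was lost with quantile normalization, the mean of probes and only the groups compared. For brainstem against hippocampus, the knockout count (5) was 8 with a replicate block and 2 with the deposited table, and the wild-type count (8) was 5 with the deposited table and 3 to 7 when an array was left out (4 without hippocampus wild-type array 1 or 3, 3 without brainstem wild-type array 2). For brainstem against cortex, the knockout count (3) was 5 with the mean of probes and 0 with only the groups compared, and the wild-type count (3) was 6 with quantile normalization and 5 with the mean of probes, with only the groups compared and with a replicate block. For hippocampus against cortex, the knockout count (1) was 0 with quantile normalization, no filter, every probe alone, only the groups compared, slide as a block and the deposited table, and 0 when any of the 6 arrays was left out. The wild-type count (1) was 2 with a replicate block and 0 with the deposited table.

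Counts over all genes between genotypes were small. With the deposited table they were 0 in cortex (7), hippocampus (4), brainstem (7) and the average (12). The hippocampus count was also 1 with only the groups compared and 2 with a replicate block. The brainstem count was 4 with normexp, 0 with only the groups compared, and 4 to 13 when an array was left out (4 without wild-type array 1 or knockout array 1, 13 without knockout array 2). The interaction counts (0) were 1 with quantile normalization for hippocampus and for brainstem against cortex, and 1 with only the groups compared for brainstem against cortex. They ranged from 0 to 1 for all 3 when an array was left out. The count was 1 for hippocampus against cortex without cortex knockout array 2, hippocampus wild-type array 1 or 2 or hippocampus knockout array 1, for brainstem against cortex without brainstem knockout array 2, and for brainstem against hippocampus without hippocampus wild-type array 2 or brainstem knockout array 2. Between hippocampus and cortex the knockout count (3768) was 1995 with only the groups compared and 0 with the deposited table, and the wild-type count (3906) was 4 with the deposited table and 2465 to 3485 when an array was left out (2465 without hippocampus wild-type array 1). The knockout count for brainstem against cortex (8068) was 4662 with only the groups compared. Of the deposited table's columns, 7 hold another array, by which knockout cortex and both hippocampus groups are mixed. Its brainstem and wild-type cortex columns hold their own arrays, and why its brainstem count was 0 was not tested. Fewer arrays enter a fit of only the groups compared. For the other settings the cause was not tested.

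Signs of differences that were not called turned for some genes. Between genotypes in cortex, Fdps was -0.102, Hmgcs1 -0.169 and Idi1 -0.046 with the deposited table, and Hmgcs1 -0.012 with quantile normalization. When an array was left out, Fdps ranged from -0.213 to 0.284, Hmgcs1 from -0.014 to 0.135 and Sqle from -0.06 to 0.059. In hippocampus Fdps was 0.118 with the deposited table, and Mvd ranged from -0.022 to 0.07 when an array was left out. In brainstem Dhcr7 was -0.025 with the mean of probes, and with an array left out Dhcr7 ranged from -0.111 to 0.24, Fdps from -0.144 to 0.015, Idi1 from -0.155 to 0.231, Msmo1 from -0.013 to 0.216 and Sqle from -0.144 to 0.013. In the average, Sqle was -0.029 with quantile normalization and -0.019 with the deposited table, and ranged from -0.015 to 0.043 with an array left out, as Fdps did from -0.15 to 0.016. Hmgcs1 ranged from -0.021 to 0.165 for brainstem against cortex in wild type, and was 0.017 with the mean of probes for hippocampus against cortex in wild type.

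The replicate block changed no call of the 8 genes between genotypes. In the other 4 region comparisons 2 of 3 pairs of the same mouse number correlated over 0.1. Whether the numbers mark shared animals is not stated for any region comparison. The probes were well above background on every array, and 3 arrays per group limit what can be called.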
